A study of Mus musculus with 4 samples.

Results

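The genes described here are 36 voltage-gated potassium channel genes of the mouse, taken by name from the Kcna, Kcnb, Kcnc, Kcnd, Kcnf, Kcng, Kcnh, Kcnq, Kcns and Kcnv subfamilies, out of 21883 protein-coding genes on chromosomes 1 to 19, X and Y. The study sequenced DNA from striatum that had been immunoprecipitated (IP) on magnetic beads coated with IgG, in 3 IP fractions, next to 1 input sample that saw no antibody. Its title names a GS-tagged TRα1, the alpha 1 receptor for thyroid hormone, in animals that combine Gad2-Cre, a driver for GABAergic neurons, with the ThraGS allele. Input and IP are labelled only as striatum, the age and sex of the animals are not in the labels used here, and whether the fractions are separate animals is not stated. One peak list of 7484 regions covers the whole series. A gene was marked if a summit, the point of highest signal in a region, lay in its annotated span or within 30 kb of either side of it. This rule uses the position of summits and not their height.

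Voltage-gated potassium channels are pores that open when the membrane depolarises and let potassium out, which ends the action potential and sets how soon a neuron can fire again. Pore-forming subunits assemble within a subfamily, so the mixture of subunits a neuron makes shapes its firing. Members of the Kcnf, Kcng, Kcns and Kcnv subfamilies do not form channels alone and instead modify other subunits. In the striatum, slowly inactivating, A-type and M-type potassium currents are known to restrain the firing of projection neurons, and fast Shaw-type currents support rapid firing of interneurons. Thyroid hormone receptors are transcription factors that commonly bind pairs of AGGTCA-like elements as partners of retinoid X receptors.

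Every peak value below comes from 1 list made by the authors, without a column per fraction, which leaves the spread between fractions unknown. Fold enrichment is the authors' ratio of the pileup, the scaled height of stacked fragments at the summit, to the local background, after adding 1 to each. Intervals printed beside a fold are 95% exact Poisson intervals of the fragments at the summit, and they cover counting error only. The 31 member peaks held 15 to 112 fragments at the summit with a median of 23, over backgrounds of 1.89 to 4.0. No IP from untagged animals was used here, and unspecific recovery on the beads was therefore not told apart from binding of the receptor. A peak list does not measure expression, so neither the tissue nor the GABAergic cells could be checked against marker genes.

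A pair of promoters carried a summit inside the stretch from 250 bases before to 50 bases after the annotated start, those of Kcna5 and Kcnh5. A promoter was listed for 25 of the 36 members. The share of all promoters with a summit in this stretch was not counted, so the pair is no result about the members. The promoters of Kcna5 and Kcnh5 are shown because here the data bear directly on a promoter, and because their peaks differ widely in height. Sequences are from RefSeq, build GRCm38.p6, read 5′ to 3′ along the gene, and capitals mark the summit with 10 bases on both sides. Kcna5 is at chr6:126535506-126535805 on the minus strand, and Kcnh5 at chr12:75177283-75177582 on the minus strand.

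Kcna5: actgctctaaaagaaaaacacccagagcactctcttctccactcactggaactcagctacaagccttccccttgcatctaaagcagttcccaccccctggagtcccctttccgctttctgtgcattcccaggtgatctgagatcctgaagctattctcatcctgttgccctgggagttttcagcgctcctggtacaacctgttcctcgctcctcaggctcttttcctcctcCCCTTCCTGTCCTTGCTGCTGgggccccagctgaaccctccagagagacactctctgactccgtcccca

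Kcnh5: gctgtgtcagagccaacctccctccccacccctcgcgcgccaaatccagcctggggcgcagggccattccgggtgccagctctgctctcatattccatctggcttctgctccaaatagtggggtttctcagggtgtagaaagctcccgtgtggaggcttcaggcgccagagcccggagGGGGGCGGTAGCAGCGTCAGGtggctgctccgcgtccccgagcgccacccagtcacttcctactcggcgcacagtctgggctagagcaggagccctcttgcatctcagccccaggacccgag

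In Kcna5, a Shaker-type delayed rectifier gene known best from the heart, the summit was 9 bp upstream of the start, at position 242 of the printed stretch. The peak spans 126535394 to 126535716 on chromosome 6 and covered 211 of the 300 bases. Its fold was 24.4 (19.2 to 30.5) from 74 fragments. In Kcnh5, an ether-a-go-go channel gene of brain, the summit was 62 bp upstream of the start, at position 189, and the peak covered all 300 bases. Its fold was 7.22 (4.65 to 10.8) from 22 fragments, so the interval of Kcna5 lies wholly above that of Kcnh5. The Kcna5 stretch has a GC content of 55.0% with 4 CpG, and the Kcnh5 stretch 65.3% with 17 CpG.

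The motif AGGTCA, searched on both strands, was in neither stretch. It was present in 3 of 30 promoters listed for the members (Kcnh1, Kcna10 and Kcnf1) and in 16.3% of all 32851 RefSeq promoters of the same length. A direct repeat spaced by 4 bases, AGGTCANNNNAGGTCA, was in no member promoter and in 0.0152% of all promoters. Its looser form AGGNCANNNNAGGNCA was also in none, against 0.253% of all. The single element AGGNCA, added after the values were seen and containing AGGTCA, occurred at 2 places in the Kcna5 stretch and in none of the Kcnh5 stretch. It was in 18 of the 30 member promoters and 57.2% of all promoters. These counts describe letters in the promoter windows only, and the set of all promoters includes those of non-coding genes, unlike the members.

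A summit in the window was found for 16 of 36 members, 44.4% (95% exact interval 27.9 to 61.9), where 32.4% of all protein-coding genes had one. The members were longer than other genes, with a median span of 29.8 kb against 17.1 kb, and longer genes had wider windows. Other genes in the same of 10 length classes gave 39.2%, or 14.1 genes of 36, and the 200 genes nearest in length to each member gave 41.6%. The members' share was thus 5.23 or 2.81 percentage points above genes of similar length, well inside the interval, and is not a result about potassium channels. The window changed this difference: within 10 kb of the span, where 16 members were also marked, it was 14.7 points (44.4% against 29.7%), and within the span alone 11.4 points. Their windows held 31 peaks, all distinct, against 24.8 from the length classes and 28.4 from the genes nearest in length.

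**Figure D1:**
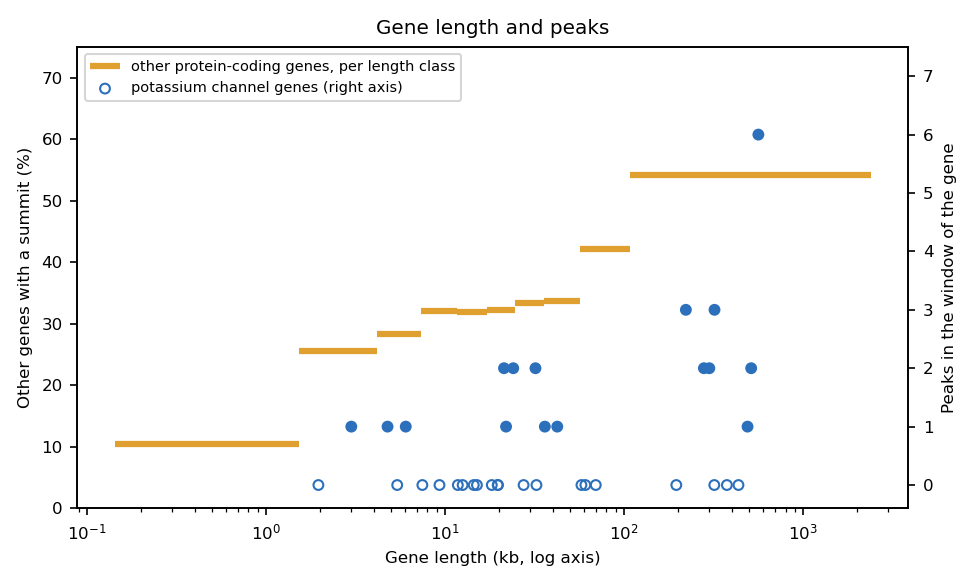
Gene length (kb, log axis) against, on the left axis, the percent of other protein-coding genes with a summit in each of 10 length classes (orange bars) and, on the right axis, the number of peaks in the window of each potassium channel gene (circles, filled where there was a peak). The share of other genes climbs from 10.5% in the shortest class to 54.2% in the longest, where 7 of 11 channel genes had a peak.

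Among the 11 members in the longest class, of at least 109 kb, 7 had a peak, 63.6% against 54.2% of other genes in that class. Those 7 were Kcnd2, Kcnd3, Kcnh1, Kcnh5, Kcnh7, Kcnq3 and Kcnq5, and Kcnb2, Kcnc2, Kcnh8 and Kcnq1 had none. Among the 25 members under 100 kb, 9 had a peak, 36% against 29.8% of other genes under that length. The 9 were Kcna2, Kcna4, Kcna5, Kcnc1, Kcnc4, Kcnf1, Kcng1, Kcnh2 and Kcns2.

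The threshold of 30 kb separated few genes. All 16 marked members had a summit in the span or within 10 kb of it, the farthest being Kcns2 at 7.91 kb. Just outside the window were Kcna7, a channel gene known from muscle, with a summit at 35.7 kb and a fold of 4.90, and Kcnh6, of the erg group, at 40.9 kb with 12.2. Kcnv2, a modifier subunit gene of photoreceptors, had one at 48.3 kb with 15.6, and Kcna3, known from lymphocytes, at 51.8 kb with 5.97. The summit nearest to Kcna3 is the one just below the lower end of Kcna2, already counted for that gene.

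**Figure D2:**
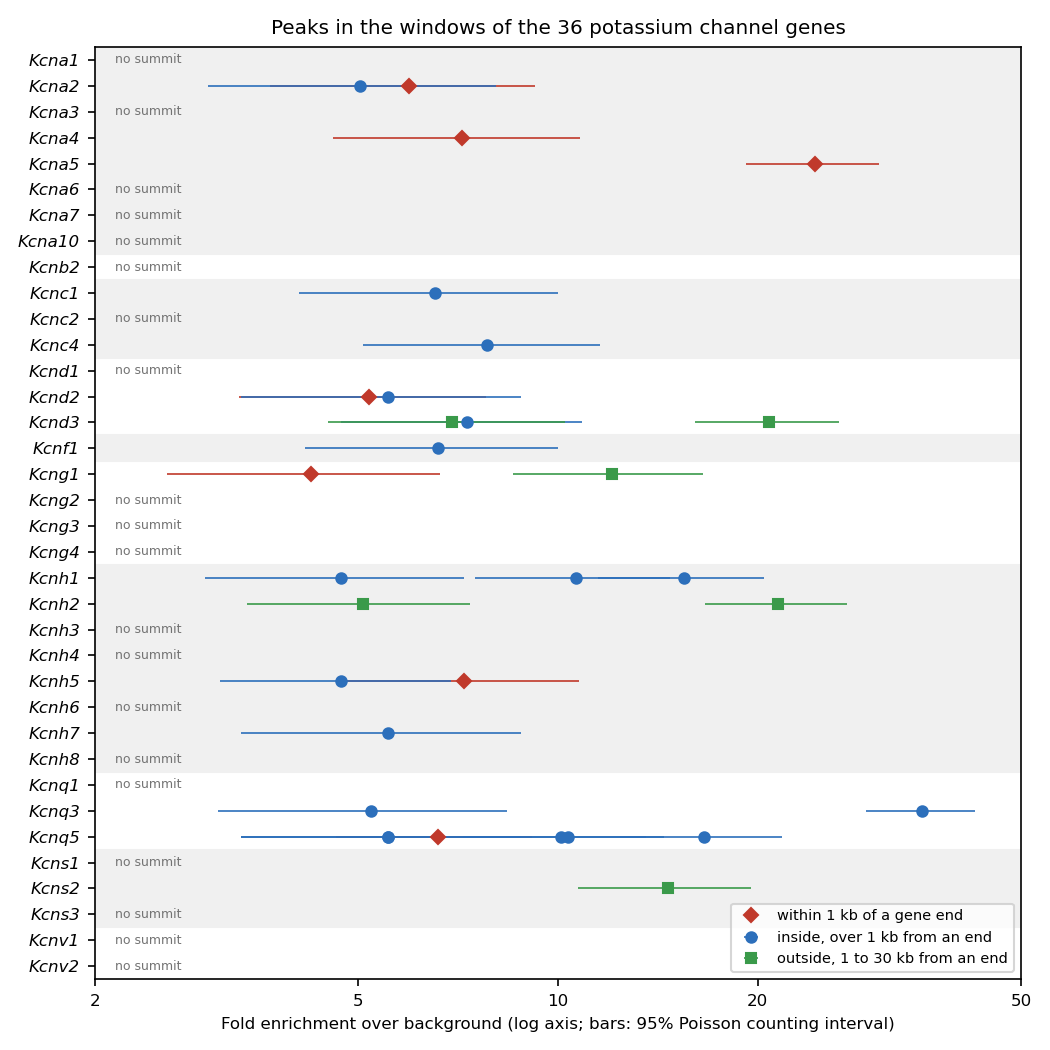
Fold enrichment over background (log axis) of every peak in the windows of the 36 genes, with genes in rows by subfamily and bars for the 95% Poisson counting interval. Red diamonds are summits within 1 kb of a gene end, blue circles lie deeper inside the gene and green squares outside it. Kcnq3, Kcna5, Kcnh2 and Kcnd3 have the 4 folds above 20, and 20 genes have no summit.

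Heights ranged from a fold of 4.24 to 35.4. The median fold over the 31 peaks was 6.93 against 6.91 for all peaks, and the median pileup was 21.6 in both. Widths of member peaks ran from 174 to 549 bp around a median of 295 bp, against 260 bp over the list. At 8 of 36 members the fold was at least 10, which is 22.2% with an exact interval of 10.1 to 39.2. Over all genes that share was 10.5%, and over others of similar length 13.4%. At 4 members the fold was at least 20, which is 11.1% with an exact interval of 3.11 to 26.1, next to 1.97% of all genes and 2.51% of others of similar length. The strongest peak of each of the 16 marked members had a median fold of 9.94 and a median pileup of 28.2. For other marked genes weighted to the same length classes these were 7.85 and 25.4. The order depended on the window. Within 10 kb of the span, with the same number of members marked, the median fold was 7.26 against 7.82 for the others, and within the span alone it was 6.88 against 7.82. None of these differences was tested, since several of the strong members were known from earlier results on this list.

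Among the Shaker-type Kcna genes, which supply delayed rectifier and A-type currents of axons, 3 of 8 had a peak against 2.43 from other genes of similar length. Kcna2, an axonal delayed rectifier gene, had 2 low peaks on chromosome 3. One had a fold of 5.97 (3.67 to 9.24) at 934 bp below the lower end of the gene, inside the predicted gene Gm38712, and the other 5.03 (2.96 to 8.07) at 1287 bp inside the upper end. Both are among the lower peaks of the list, at ranks 4948 and 6236. Kcna4, which encodes an A-type subunit, had a fold of 7.17 (4.57 to 10.8) at 665 bp downstream of its start, in a region of chromosome 2 where the nearest other coding gene, Fshb, is 232 kb away. The Kcna5 peak ranked 127 of 7484 and was the only member peak of this subfamily with a fold of at least 10.

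Kcna5, Kcna1 and Kcna6 lie side by side on chromosome 6, and Kcna3, Kcna2 and Kcna10 on chromosome 3. In the chromosome 6 group the Kcna5 peak was also the nearest summit to Kcna1, at 101 kb, and to Kcna6, at 173 kb, 2 genes of Shaker-type subunits abundant in brain. On chromosome 3 only Kcna2 had a summit in its window, and Kcna10, known from the inner ear, had its nearest at 65.3 kb. Kcna2 and Kcna3 have overlapping windows. With them joined, 16 of 35 loci had a peak.

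Kcnb2, a Shab-type delayed rectifier gene of 437 kb, had its nearest summit at 1098 kb. Of the Shaw-type Kcnc genes, whose channels open at high voltage and close fast, 2 of 3 had a peak against 1.2 from other genes of similar length. Kcnc1, typical of fast-spiking neurons, had a fold of 6.52 (4.07 to 9.99) inside the gene, 18.1 kb downstream of its start. Kcnc4 had 7.82 (5.09 to 11.6) at 16.5 kb downstream of its start and 4081 bp from its lower end. Kcnc2 had its nearest summit at 640 kb. Neither Kcnc peak reached a fold of 10.

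The Shal-type Kcnd genes encode the A-type current of dendrites, and 2 of 3 had a peak against 1.4 from other genes of similar length. Kcnd2 had 2 low peaks near its start, with folds of 5.18 (3.30 to 7.79) at 218 bp and 5.55 (3.32 to 8.79) at 3930 bp downstream. From there to its far end this gene of 514 kb had no summit. Kcnd3 showed the reverse layout, with its strongest peak beyond the far end of the gene. That peak, at chromosome 3, 105695644 to 105696171, had a fold of 20.8 (16.1 to 26.5) from 63 fragments and lay 21.8 kb past the upper end. It was 8.03 kb from Ddx20, an RNA helicase gene, and so closer to Ddx20 than to Kcnd3. A lower peak of 6.93 (4.5 to 10.2) lay 1986 bp before it, and a peak of 7.30 (4.70 to 10.9) sat 120 kb into Kcnd3. Kcnd1 is the 1 member on chromosome X, where 7.88% of 965 other coding genes had a peak, and it had none.

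The Kcnh genes encode ether-a-go-go channels, among them the erg group that repolarises heart cells, and 4 of 8 had a peak against 3.48 from other genes of similar length. Kcnh1, an ether-a-go-go gene of brain, had 3 peaks, all deep inside its 321 kb span on chromosome 1. Their folds were 15.5 (11.47 to 20.5), 10.7 (7.48 to 14.8) and 4.71 (2.94 to 7.22) at 79.1 kb, 122 kb and 220 kb downstream of the start. Heights thus fell with distance from the start in this gene, and the intervals of the first and the last do not overlap. Kcnh2, the erg gene of cardiac repolarisation, had both of its peaks beyond its upper end on chromosome 5. The stronger, 24360901 to 24361239, had a fold of 21.5 (16.7 to 27.3) from 65 fragments at 9.36 kb from Kcnh2 and 3.77 kb from Nos3, the endothelial nitric oxide synthase gene. A peak of 5.08 (3.39 to 7.36) lay 3375 bp away at 5.99 kb from Kcnh2 and 7.14 kb from Nos3. Besides its promoter peak, Kcnh5 had a fold of 4.71 (3.09 to 6.91) 241 kb into the gene. Kcnh7, an erg gene of neurons, had 1 peak of 5.55 (3.32 to 8.79) at 52.0 kb into the gene. Kcnh3, Kcnh4 and Kcnh8, of the elk group, and Kcnh6 had none.

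Of the Kcnq genes, Kcnq3 and Kcnq5 contribute to the M-current, a slow current that muscarinic receptors switch off and that restrains repeated firing, and Kcnq1 encodes a slow delayed rectifier of the heart. Peaks were found at 2 of 3 against 1.63 from other genes of similar length, and the 3 windows held 8 peaks against 3.53 from the length classes and 4.83 from the genes nearest in length. Kcnq3 had the strongest member peak, at chromosome 15, 66270322 to 66270735, with a pileup of 105 from 112 fragments and a fold of 35.4 (29.2 to 42.5). It ranked 26 of 7484 and lay inside the gene, 16.1 kb from the upper end, and the nearest other coding gene was 109 kb away. A second peak of 5.22 (3.07 to 8.39) lay 78.2 kb away, also inside the gene. The intervals of these peaks are far apart, so the signal of Kcnq3 rests on 1 region.

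Kcnq5 held 6 peaks, the most of any member, where the 200 other genes nearest to it in length held 2.11 on average. A group of 3 summits within 3511 bp surrounded its annotated starts. The highest of them, at chromosome 1, 21961003 to 21961317, had a fold of 16.6 (12.4 to 21.8) and lay 783 bp downstream of one start. Its neighbours had 5.55 (3.32 to 8.79) at 1943 bp downstream and 6.59 (4.62 to 9.12) at 860 bp upstream of the other start. Further along the gene were 10.1 (7.36 to 13.6) at 42.5 kb, 5.55 (3.32 to 8.79) at 431 kb and 10.3 (7.18 to 14.5) at 503 kb downstream. Kcnq5 therefore differed from Kcnq3 in holding 6 peaks with folds of 5.55 to 16.6, where Kcnq3 had folds of 35.4 and 5.22. Kcnq1 had its nearest summit at 403 kb.

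**Figure D3:**
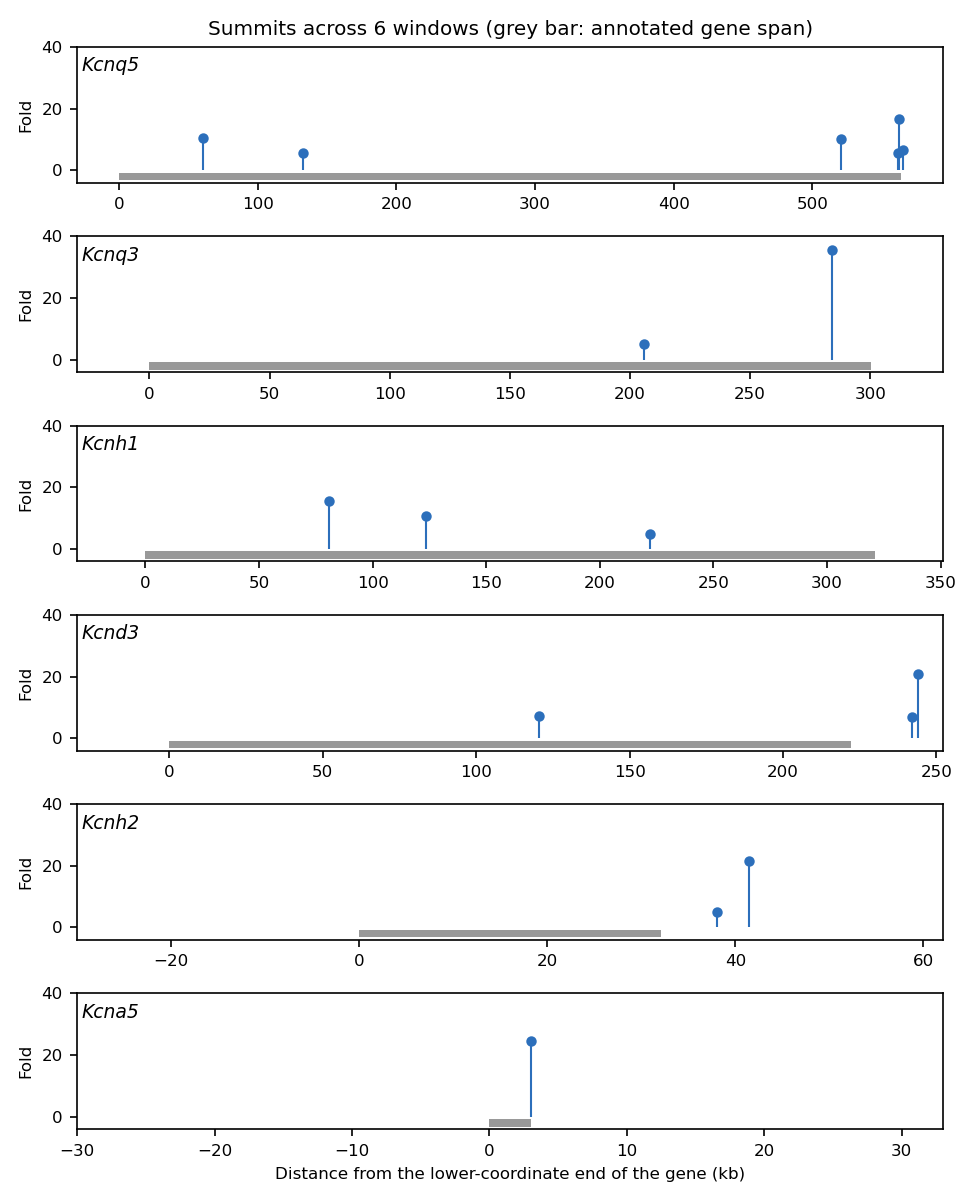
Fold of each summit (vertical lines with points) against its distance in kb from the lower-coordinate end of the gene, in 6 windows with the gene span in grey. Kcnq5 has 3 of its 6 summits gathered near its upper end, Kcnq3 and Kcnh1 have theirs inside, Kcnd3 and Kcnh2 have their highest outside the gene, and Kcna5 has 1 at its upper end.

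The modifier subunit genes Kcnf, Kcng, Kcns and Kcnv together had a peak at 3 of 10 members, against 3.44 from other genes of similar length. Kcnf1 had a fold of 6.59 (4.16 to 10) inside its 4.79 kb span. Kcng1 had 12.05 (8.54 to 16.5) at 18.3 kb above its upper end, and at 660 bp from that end a peak of 4.24 (2.58 to 6.64), the lowest of all member peaks. Kcns2 had 14.6 (10.7 to 19.5) at 7.91 kb below its lower end, inside the span of the predicted gene Gm32970. Kcng2, Kcng3, Kcng4, Kcns1, Kcns3, Kcnv1 and Kcnv2 had none. Kcns2 and Kcng1 had their strongest peaks outside the gene, as did Kcnh2 and Kcnd3. Those of Kcna2, Kcna5 and Kcnh5 also lay outside the gene, within 1 kb of an end.

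**Figure D4:**
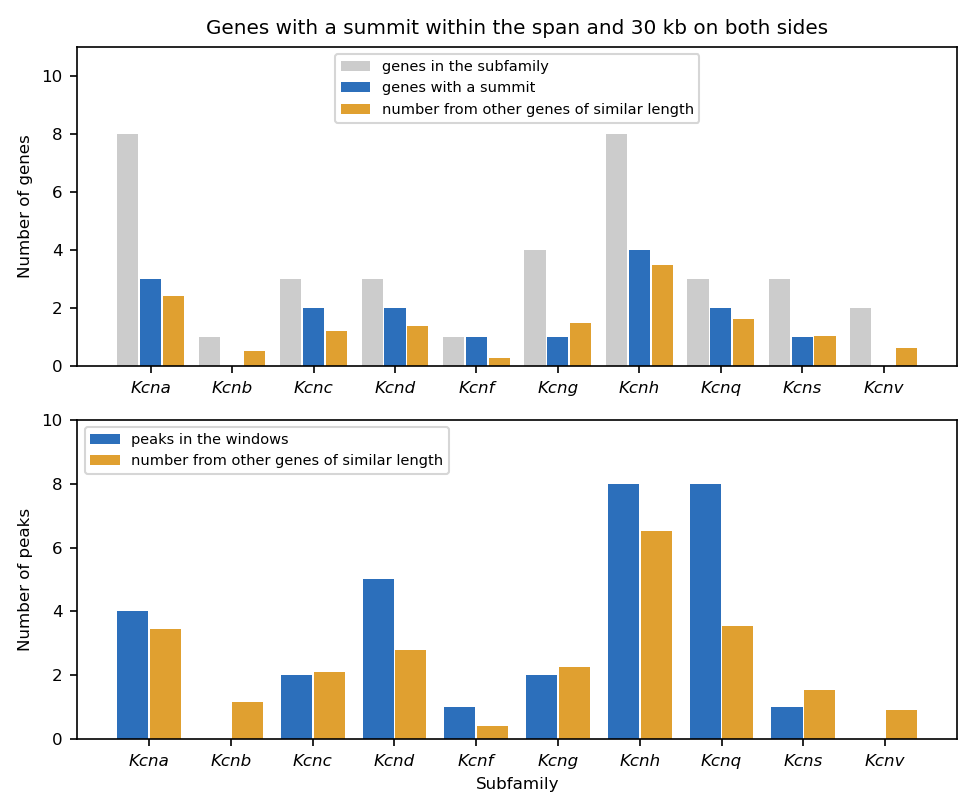
Top, for each subfamily, the number of genes (grey), the number with a summit in the window (blue) and the number that other protein-coding genes of the same length classes would give (orange). Bottom, the number of peaks in the windows (blue) and the number from other genes (orange). Counts of genes stay within 1 gene of the orange bars in every subfamily, as they must for Kcnb and Kcnf with 1 gene each. Kcnq has 8 peaks against 3.53.

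No subfamily differed from genes of similar length by as much as 1 gene, and subfamilies of 1 to 8 genes are too small for more than a count. Kcnb and Kcnf, with 1 gene each, could not have differed by that much. Kcna and Kcnh, the largest, stood at 37.5% and 50% against 30.3% and 43.5%. Median pileup was 18.3 over the 4 Kcna peaks, 20.7 over the 5 Kcnd peaks, 23.5 over the 8 Kcnh peaks and 31.0 over the 8 Kcnq peaks. Their ranges overlapped, from 14.1 to 69.5 in Kcna, 15.0 to 59.2 in Kcnd, 15.0 to 61.0 in Kcnh and 14.1 to 105 in Kcnq. Peaks per Mb of window were 6.61 for Kcna, 5.37 for Kcnd, 3.91 for Kcnh and 5.86 for Kcnq.

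In position, 20 of the 31 member peaks, 64.5%, lay inside the gene, where 59.4% of all peaks lay inside some protein-coding gene. These shares have unlike bases. Member peaks were limited to the window of a gene, and all peaks include those far from any gene. Peaks in the windows of other genes were not counted this way. The median fold was 6.56 inside and 7.22 for the 11 outside. A summit within 1 kb of either end was found at 7 of 36 members, or 19.4% with an exact interval of 8.19 to 36, next to 6.63% of all genes and 7.14% of others of similar length. The count was 3 within 500 bp (8.33% against 5.13%), 3 with only peaks above the median fold (8.33% against 3.80%) and 4 with a −log10 q at or over 10 (11.1% against 3.93%). Members were chosen with earlier results on this list known, so the exact interval is no test against these shares. The 7 members within 1 kb were Kcna2, Kcna4, Kcna5, Kcnd2, Kcng1, Kcnh5 and Kcnq5, and all of the Kcna genes with a peak were among them. RefSeq promoters give the start of 25 members, and 5 of these, 20%, had a summit within 1 kb of a start, against 6.55% of all genes with a listed start. The 5 were Kcna4, Kcna5, Kcnd2, Kcnh5 and Kcnq5. Of the 26 peaks of members with a listed start, 6 were upstream of it and 20 downstream. The window holds the whole gene and 30 kb more downstream of a start, and far less upstream. These counts therefore show no preference for either side. Apart from the Kcna5 peak, the member peaks within 1 kb of an annotated gene end had folds of 4.24 to 7.22, against the median of 6.91 for all peaks. That range leaves out the Kcnq5 peak with a fold of 16.6, which lay 783 bp from a listed start but 1491 bp from the gene end. No member summit lay inside another protein-coding gene, and 6 of the 31 were within 30 kb of one.

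Related genes were counted in the same way, from lists written with earlier results of these data known. Auxiliary subunits of voltage-gated channels had a peak at 8 of 15 genes against 5.73 from genes of similar length, led by Kcnab1, a cytoplasmic beta subunit gene, with 6 peaks of up to 16.3, and Kcnip3, which binds Shal-type channels, with 15.0. Partners and anchors of axonal channels had a peak at 5 of 8 against 3.71, led by Adam22 with 15.7 at 598 bp from an end and Cntnap2 with 11.1, both of which encode partners of Shaker-type channels. Calcium- and sodium-activated channels reached 6 of 12 against 5.11, with Kcnt1 at 10.2 and Kcnma1, the large-conductance channel gene, at 10.1. Inward rectifiers, which hold the resting potential, reached 7 of 15 against 5.34, with Kcnj6 at 9.14 and Kcnj13 at 7.62. Neighbours were not joined in these lists, so 1 peak can count for several genes. Kcnj9 and Kcnj10, both on chromosome 1, had the same fold of 5.27 and the same pileup of 25.4. Two-pore leak channels reached 7 of 14 against 5.02, with Kcnk1, which had 7 peaks, at 16.6 and Kcnk2 at 12.7. None of these genes had a peak as high as those of Kcnq3, Kcna5, Kcnh2 and Kcnd3.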

How the data were processed

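The authors deposited 1 peak list for 3 IP fractions and 1 input of mouse striatum. The submitters' processing notes name Bowtie2 2.3.4.2, MACS2 2.1.1.20160309.0 and the assembly GRCm38 (mm10), with no roles stated. Pooling of the fractions is not stated in the labels. Per the file headers, the deposited pileup is a signal at the summit, fold enrichment is a ratio over background, and the columns for p-value and q-value are on a −log10 scale. These scores describe peaks within the list only.

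Pileups lay on a grid of step 0.939, which gave fragments per summit, and background was (pileup + 1) / fold − 1. Totals per library were not used here. Genes and promoters came from RefSeq tables of GRCm38.p6, matched by symbol for 36 of 36 members and, for promoters, 25. Strand came from the promoter table, and exons were not used here. The share of genes with a summit was averaged over other protein-coding genes in 10 classes of equal number by length. Exact (Clopper-Pearson and Poisson) intervals are at 95%, and PCR copies are not independent molecules. Python 3.11.15, pandas 2.3.3 and scipy 1.17.1 were used, and the counting was tested on simulated data. Members, lists and alternatives were chosen with earlier results of these data known, and no test was run. Each marked member is named with its strongest peak, and every peak for members with 3 or more peaks or a fold of at least 10. Of each related list the 2 genes with the highest fold are named. Promoters are printed only where a summit lies in them.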

Additional observations from a re-analysis of the deposited data

How the results depend on the processing

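The difference between the members' share and that of other genes of similar length was above 0 in all 13 alternatives tried. It ran from 2.81 percentage points with the 200 genes nearest in length to 14.7 with a 10 kb window, beside the main value of 5.23. The alternatives count the same 36 genes on the same list, so they are not independent of each other. The exact interval of the members' share, 27.9 to 61.9%, is wide, so staying within it says little. The number of members with a peak ran from 11 of 36, with a −log10 q of at least 10 or a fold above the median, to 24 within 100 kb. Other genes of similar length gave 25.4% and 24.2% where members gave 30.6%, and within 100 kb 59.7% against 66.7%. The median fold of the strongest member peaks ran from 6.88 in the gene span to 15.5 with either limit on q or fold, where others had 7.82, 10.2 and 10.5. Of 136 values under an alternative, 17 counts moved by more than 1.5 times. The other 119 were counts within 1.5 times or values within the exact interval of the main value, which for the median fold spans 6.52 to 20.8. In the gene span alone, Kcng and Kcns had 0 genes with a peak, and with 5 kb added Kcns still had 0. Within 100 kb, Kcna had 6, Kcng 3, Kcns 2 and Kcnv 1. Neighbouring genes can share a summit at that distance, as Kcna2 and Kcna3 did. Within 30 kb of either end, leaving out the deep interior, Kcnh had 2. Both with −log10 q at or over 10 and with a fold above the median, Kcnc had 1, Kcnd 1 and Kcnf 0. Members with a summit near an end numbered 7 within 1 kb, 3 within 500 bp, and within 1 kb 4 with −log10 q at or over 10 and 3 with a fold above the median. No paired analysis was possible because the list has no column per sample. For the same reason no fraction could be left out in turn.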

Other observations

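Of the 20 members without a summit in the window, 8 had one within 100 kb, and 12 members had none within that distance. In all, 66.7% of members had a summit within 100 kb, against 59.7% of other genes of similar length. Besides those just outside the window, Kcns3, a modifier subunit gene, had a summit at 63.7 kb with a fold of 5.34, and Kcng4, also a modifier, at 79.3 kb with 16.5. Kcng2 had one at 97.1 kb with 11.9. Kcnd1 on chromosome X was 3797 kb from the nearest summit.

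Promoters of the members had a higher median GC content than all RefSeq promoters, a set that includes those of non-coding genes. The median was 64.7% over 30 promoters of 25 genes, with a range of 46% to 82%, against 52.7% over all RefSeq promoters. Promoters of other protein-coding genes alone were not compared. Promoters of members with a peak had a median of 66.3% and 20 CpG, and those of members without one 59.8% and 8.5 CpG, against 7 CpG over all promoters. Ranges overlapped, at 46% to 74.7% and 47% to 82%. Several promoters belong to 1 gene, such as those of Kcnc2 and Kcnq5, and no test was run.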
